A study of Homo sapiens with 9 samples.

Results

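The response of androgen-starved LNCaP cells to androgen was read from 6 of the 9 arrays of the study: the 3 arrays titled 1nM R1881 and DMSO and the 3 titled ethanol and DMSO. The arrays were chosen by these titles alone, and every one of the 12165 genes with a probe set of its own was kept. LNCaP is an established human prostate cancer cell line, and the results therefore describe a single line in culture. All cultures, the vehicle cultures included, had spent 2 d in medium with charcoal-stripped serum, which is poor in steroid hormones. The androgen cultures then received 1 nM R1881, a synthetic androgen that the labels call non-metabolizable, together with DMSO, and the vehicle cultures received ethanol and DMSO. The labels do not say whether the androgen cultures also received ethanol. Vehicle treatment lasted 24 h. For the androgen arrays the titles give 6 h and the descriptions and design text 24 h, so that a difference below may hold the effect of unequal times as well as of androgen, which cannot be told apart here. The other 3 arrays of the study, from cells given R1881 with 1.25 µM celastrol, entered the shared estimate of the spread and the choice of each gene's probe set.

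The androgen receptor is a nuclear receptor that binds androgen, moves to chromatin and, with coactivators and corepressors, raises the transcription of some genes and lowers that of others. In the luminal cells of the prostate this programme includes secreted proteases such as the kallikreins, the machinery that exports them, lipid metabolism and regulators of growth. LNCaP cells keep much of it and depend on androgen for growth, which is why hormone depletion followed by R1881 is a common way to read out the programme.

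The 6 arrays gave median intensities between 73.4 and 80.2, in the linear units of the robust multi-array average (RMA). Vehicle array 3 stood apart: its log2 values deviated from the vehicle mean with a standard deviation of 0.31, against 0.12 to 0.20 on the other 5 arrays. The labels name the cultures as biological replicates without saying how they were separated, so that the p-values measure only the spread between these samples. Of 19 measured markers of luminal prostate cells, 4 were under an intensity of 100 on each vehicle array and 3 on each androgen array, and their summed intensity was 48087 to 48980 with vehicle and 71932 to 75122 with androgen. All 10 leukocyte markers were under 100 on every array, as were 8 of 9 markers of basal epithelium. Of 14 markers of stroma and endothelium, 9 or 10 were under 100 with vehicle and 11 with androgen, and the summed intensity of this list was 4598 to 4728 with vehicle and 2219 to 2489 with androgen. Fibronectin (FN1), which made up most of that sum, went from 3609, 3735 and 3723 on the vehicle arrays to 1589, 1386 and 1486 on the androgen arrays. In bulk RNA fewer cells of a type and less RNA per cell cannot be told apart, and whether cells of another type had a part in this was not tested.

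Between the vehicle and the androgen arrays 1583 of the 12165 genes, or 13%, changed at an adjusted p below 0.05 by limma. Of these, 872 rose (7.17% of all genes) and 711 fell (5.84%). Rises reached further than falls: 53 genes rose at least 4-fold and 17 at least 8-fold, against 21 and 3 that fell as far, and only KLK2, FKBP5 and SNAI2 passed 16-fold. When vehicle array 3 was left out, the fold of SNAI2 was 14.4 and that of CSGALNACT1 was 19.2. Many changes were small: 704 of the 1583 genes changed by less than 1.5-fold and the median called rise and fall were 0.66 and -0.59 on the log2 scale. The median of all genes was -0.04. Centring each array on its median moved this to 0.02 and gave 1091 rises and 556 falls, so that rises made up 66.2% of calls and not 55.1%. Without vehicle array 3, 864 genes rose and 972 fell. The smallest number of calls came without androgen array 2, with 645 rises and 433 falls, against 711 falls with all arrays.

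The groups did not overlap at any of the 1583 called genes, but this was true of 3445 genes in all, or 28.3% of those tested. Calls were rare among dim genes. Of the 3042 genes with the lowest vehicle level, at intensities from 19.8 to 42.6, 23 rose and 3 fell, whereas 430 rose and 390 fell among the 3041 genes with the highest, at 528 and above. Other probe sets of the same gene gave a reading that the choice of probe set had not used, although on the same arrays. For called genes, 87.0% of 1318 such probe sets moved in the direction of the call. Among the 682 at or above the median level of all genes this was 97.4%, with a median ratio of 0.96 to the change of the chosen probe set, and among the 122 of these that belonged to genes changed at least 2-fold it was all 122.

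**Figure D1:**
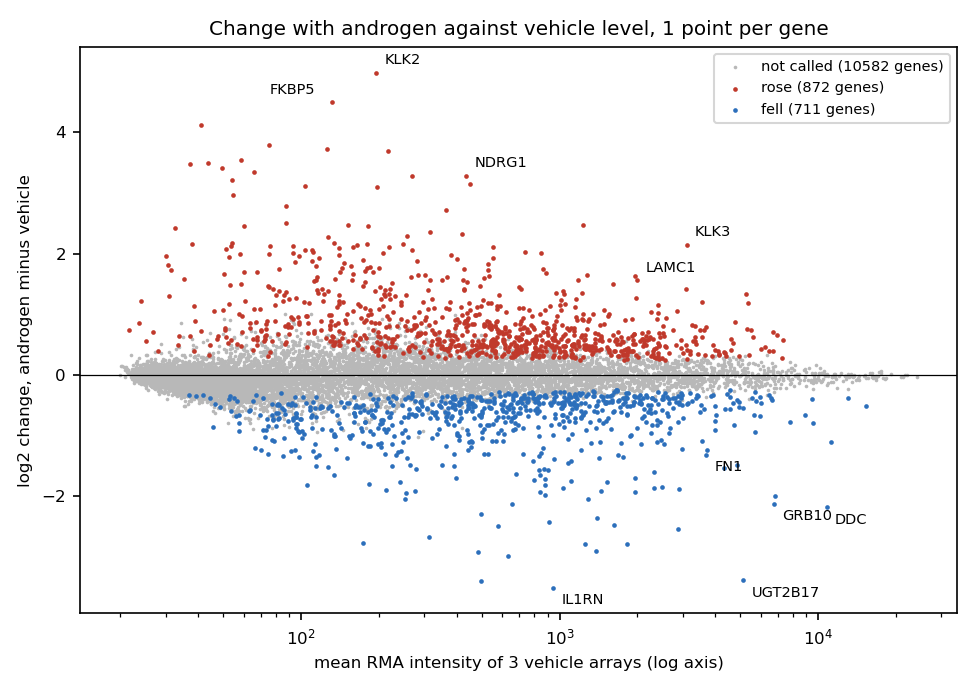
Each point is a gene, placed by its mean intensity on the 3 vehicle arrays (log axis) and by its log2 change, androgen minus vehicle; red points rose, blue points fell and grey points were not called. Few called genes lie at the dimmest levels, and KLK2, at 4.98, and FKBP5, at 4.49, stand furthest from 0.

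The kallikreins KLK2 and KLK3 are neighbouring genes on chromosome 19 that encode secreted serine proteases of the prostate; the product of KLK3 is prostate-specific antigen. KLK2 read 258, 212 and 115 on the vehicle arrays and 5491, 6319.9 and 5758 on the androgen arrays, a fold of 31.6 (adjusted p = 4.84e-06). KLK3 was already bright with vehicle, at 3040, 3011 and 3270.5, and reached 13778, 13455 and 14078, a fold of 4.43 (adjusted p = 9.17e-07). Vehicle array 3 was the lowest array for KLK2 and the highest vehicle array for KLK3. As at every called gene, the groups did not overlap at KLK2 or KLK3. Their promoters are shown because they carry nearly the same stretch of bases, alike at all but its first base, and that of FKBP5, whose rise was next in size to that of KLK2, because it does not. FKBP5, a co-chaperone of steroid receptors, went from 129, 135 and 132 to 2839, 3252 and 2862, a log2 change of 4.49 ± 0.14. Each line gives 250 bases before and 30 bases after the transcript start, 5′ to 3′ on the gene's own strand, from RefSeq on GRCh38.p14. The windows are chr19:50854665-50854944 (plus strand) for KLK3, chr19:50873189-50873468 (plus strand) for KLK2 and chr6:35728554-35728833 (minus strand) for FKBP5. Capitals mark that stretch in KLK3 and KLK2 and the letters AGAACA in FKBP5.
KLK3: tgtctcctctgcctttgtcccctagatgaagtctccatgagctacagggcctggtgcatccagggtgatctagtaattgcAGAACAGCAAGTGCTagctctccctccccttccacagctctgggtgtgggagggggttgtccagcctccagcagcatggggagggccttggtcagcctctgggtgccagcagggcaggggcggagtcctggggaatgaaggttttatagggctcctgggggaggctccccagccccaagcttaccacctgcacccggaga
KLK2: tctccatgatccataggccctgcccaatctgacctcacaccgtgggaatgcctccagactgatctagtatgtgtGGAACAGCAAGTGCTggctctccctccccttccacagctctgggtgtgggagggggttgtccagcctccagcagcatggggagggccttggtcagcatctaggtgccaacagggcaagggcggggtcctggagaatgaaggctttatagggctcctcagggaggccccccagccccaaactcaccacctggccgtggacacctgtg
FKBP5: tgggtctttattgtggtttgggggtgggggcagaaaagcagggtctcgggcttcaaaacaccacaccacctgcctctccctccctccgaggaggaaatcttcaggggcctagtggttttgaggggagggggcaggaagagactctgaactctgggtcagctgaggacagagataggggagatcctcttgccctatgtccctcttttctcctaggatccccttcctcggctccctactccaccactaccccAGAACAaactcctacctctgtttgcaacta

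In KLK3 the capitals run from base -170 to base -156, with the base before the start numbered -1, and this stretch is known as an androgen response element of the gene. In KLK2 they run from -176 to -162. With KLK2 shifted by 6 bases, 225 of 294 bases of the full windows, or 76.5%, were the same in both genes. The letters GAACANNNAGTGCT, searched on both strands and chosen after both sequences had been seen, stood in 13 of 27305 promoters (0.0476%). Besides KLK2 and KLK3, 2 of the 13 belong to genes measured here: HNRNPD, at a log2 change of -0.10 ± 0.08, and LINC01565, at -0.10 ± 0.17, neither of them called. In FKBP5 the capitals cover bases 1 to 6 of the transcript. The letters AGAACA alone are common: 14.9% of all promoters held them on either strand, as did 10.3% of the 9709 promoters of measured genes, 7.63% of 747 promoters of genes that rose and 10.4% of 568 of genes that fell. Among genes changed at least 2-fold, 8.38% of 191 promoters of those that rose and 16.2% of 99 of those that fell held the letters, with no test made of the difference. The palindrome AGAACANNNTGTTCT, which contains AGAACA on both strands, was in 1 of the 27305 promoters and in none of the 9709. These windows are short, and a lack of the letters says nothing of the receptor elsewhere at a gene.

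Besides KLK2 and FKBP5, the 20 largest rises included secreted and membrane proteins, enzymes and signalling genes. CSGALNACT1, which starts chondroitin sulphate chains, read 55.8, 40.7 and 128 with vehicle and 891, 866 and 989 with androgen, and ORM1, a secreted glycoprotein of plasma, read 28.0, 30.7 and 89.0 and 461, 512 and 393. For both, vehicle array 3 was the highest of the vehicle arrays, and their folds of 13.8 and 10.7 were computed as 19.2 and 15.4 without it. SNAI2 read 48.5, 47.3 and 27.6 with vehicle and 706, 691.5 and 676 with androgen. The lowest vehicle values of SNAI2, CSGALNACT1, HPGD, ORM1 and F5, and all those of OTULINL, lie within 19.8 to 42.6. This is the range of the 3042 dimmest genes, where the size of a fold is uncertain. OTULINL, a relative of the deubiquitinase OTULIN, was even in both groups, at 36.9, 37.7 and 37.1 and then 447, 409 and 398.

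CADPS2, which acts in the release of dense-core vesicles, rose from 74.9, 71.4 and 51.6 to 706, 588 and 698. F5, coagulation factor V, rose from 41.7, 35.5 and 86.5 to 412, 386 and 382, again with vehicle array 3 highest (2.96 ± 0.41 on the log2 scale, and 3.35 without that array). NDRG1, a substrate of the kinase SGK1, was already at 459, 409.5 and 438 with vehicle and reached 4573, 3872 and 4302. SGK1 itself rose from 115, 83.3 and 63.4 to 569, 640.5 and 547. No androgen array of these 4 genes fell among the vehicle arrays, as the ranking required.

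The remaining large rises were of single genes from several families. GNMT, at rank 5 of the rises, went from 146, 140.0 and 92.0 to 1562, 1725.5 and 1603. MICAL1, an enzyme that oxidises actin filaments, went from 203, 242 and 144 to 1636, 1832 and 1485. SOCS2, a brake on cytokine and growth hormone signalling, went from 103, 131 and 75.8 to 858, 894 and 873. NCAPD3, a subunit of the chromosome-shaping complex condensin II, went from 362, 359.9 and 373 to 2122, 2456 and 2630, with a standard error of 0.09 on a log2 change of 2.71. Vehicle array 3 was the lowest vehicle array for KLK2, GNMT, CADPS2, SGK1, MICAL1 and SOCS2, as the plot of the ranked genes shows. Without it none of these folds changed by more than 1.5 times.

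**Figure D2:**
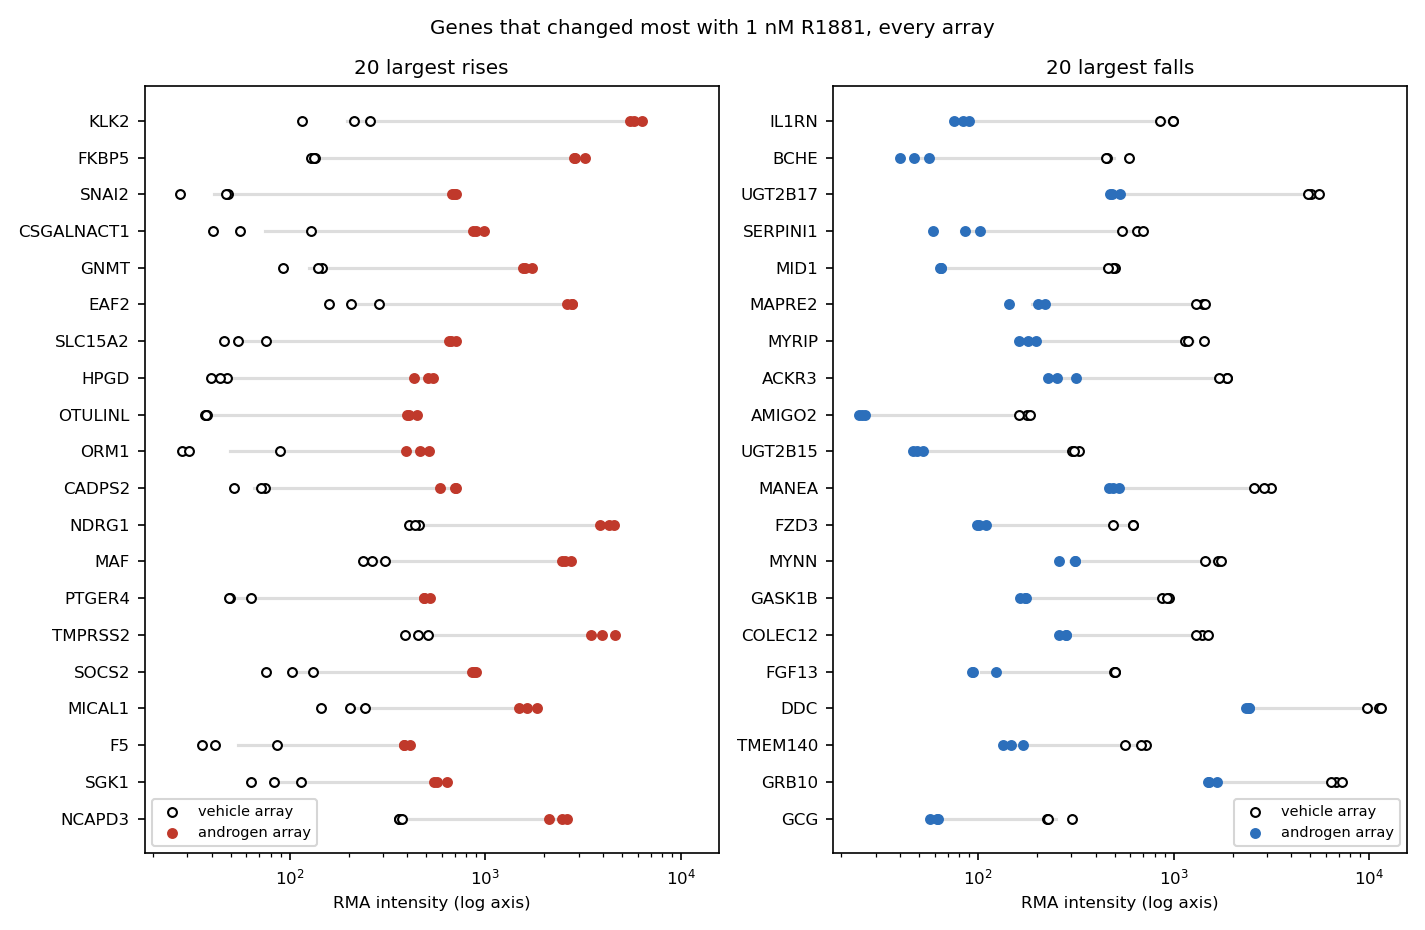
Intensity (log axis) on each of the 3 vehicle arrays (open circles) and 3 androgen arrays (filled circles) for the 20 largest rises and the 20 largest falls among called genes whose arrays do not overlap; grey lines join the group means. KLK2 moves from 115 to 258 up to 5491 to 6319.9, and DDC moves from 9735 to 11476 down to 2331 to 2420.0.

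The largest fall was that of IL1RN, from 989, 852 and 992 to 90.0, 84.1 and 75.7. BCHE came next, from 454, 450 and 589 to 56.0, 46.9 and 39.9. Other genes of the 20 largest falls were abundant before androgen was added. DDC, which makes dopamine and serotonin from their precursors, fell from 11177, 9735 and 11476 to 2420, 2420 and 2331, and GRB10, an adaptor that restrains the insulin and IGF1 receptors, fell from 6743, 6351 and 7235 to 1660.2, 1492 and 1522. MANEA, an endomannosidase of the Golgi, fell from 3148, 2563 and 2900.3 to 466, 489.7 and 528. The log2 changes of DDC, GRB10 and MANEA were -2.17 ± 0.09, -2.12 ± 0.09 and -2.53 ± 0.11, and the adjusted p of DDC was 2.03e-06.

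Genes of cell surface and secreted proteins were among the other falls. ACKR3, a scavenging receptor for the chemokine CXCL12, fell from 1877, 1878 and 1703 to 317, 253 and 227. COLEC12, a scavenger receptor, fell from 1397, 1300.4 and 1500.5 to 281, 258 and 281. AMIGO2, an adhesion protein, dropped to the dim end of the arrays, from 177, 184 and 161 to 26.4, 25.4 and 24.6. SERPINI1, a serine protease inhibitor also called neuroserpin, fell from 632 ± 79.3 to 82.0 ± 21.9 (mean ± SD, n = 3 each).

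Genes better known from nerve or endocrine cells were among them as well. FGF13, an intracellular protein that binds sodium channels, fell from 493, 502 and 502 to 124, 92.8 and 93.8. GCG, the gene of proglucagon, fell from 224, 228 and 303 to 61.7, 56.5 and 62.5. The zinc-finger gene MYNN fell from 1696, 1737 and 1440.1 to 312, 312 and 259.9, the Golgi kinase gene GASK1B from 913 ± 37.6 to 171 ± 6.14, and TMEM140 from 658 ± 83.0 to 151 ± 18.3 (mean ± SD, n = 3 each). Vehicle and androgen arrays were apart for each of them, which the ranking of the largest changes had required. Of 16 neuroendocrine genes measured, DDC and ENO2, the neuronal enolase, fell and none rose, against 5.84% and 7.17% of all genes. ENO2 (log2 change -1.10 ± 0.27) was no longer called without vehicle array 1 or 2 or androgen array 1, 2 or 3 (adjusted p up to 0.0961). The chromogranin gene CHGA stood at -0.42 ± 0.23 and was not called.

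The count of each list is to be read beside the 7.17% of all genes that rose and the 5.84% that fell. The lists were chosen with earlier results of these data known, so that their counts and ranks describe them and test nothing. Among the 19 luminal identity genes 8 rose and 2 fell, with a list median of -0.03 beside -0.04 for all genes. The 3 keratins of the list, which are those of simple epithelia, all rose: KRT8 from 1276, 1414 and 1143 to 3702, 3953 and 4292, KRT18 from 5849, 5648 and 4658 to 12047, 11869 and 12546 and KRT19 from 41.9, 55.9 and 60.0 to 206, 228 and 175. SPDEF, an ETS factor of secretory epithelium, rose from 523, 554 and 503 to 1892, 2064 and 1667. AZGP1, a secreted zinc-binding glycoprotein, rose from 353, 273 and 574 to 1452, 1500.2 and 1356, and TMPRSS2, a membrane serine protease, from 510.2, 390.3 and 450.1 to 3481, 3945 and 4593.

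The lineage factors were not called. FOXA1, HOXB13 and GATA2, which help the receptor bind chromatin, stood at -0.16, -0.42 and -0.42 on the log2 scale. FOLH1, the gene of prostate-specific membrane antigen, fell from 14657, 15496 and 15899 to 10472, 11014 and 10891. EPCAM, an epithelial adhesion gene, fell by 0.36 on the log2 scale and lost its call without androgen array 1 (adjusted p up to 0.0528). ACP3, prostatic acid phosphatase, stood at -0.29 ± 0.10 (adjusted p = 0.0857).

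Transcription factors with a known link to androgen were the list with the second highest median, 0.26, with 15 of 30 rising and 3 falling. After SNAI2, EAF2 and MAF, the last a bZIP factor that went from 309, 263 and 236 to 2743, 2476 and 2565, came SOX9, a factor of progenitor and duct epithelium, from 85.9, 75.0 and 67.0 to 349, 294 and 353. BHLHE40, a repressor tied to the circadian clock, rose from 107, 129 and 73.4 to 436, 396 and 423. The Krüppel-like factors parted: KLF5 and KLF4 rose (1.76 ± 0.26 and 1.54 ± 0.23), while KLF9 was lower (-0.41 ± 0.09) and lost its call without vehicle array 1 or 2 or androgen array 2 or 3 (adjusted p up to 0.0862).

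Rises were also seen for CREB3L2 (1.77 ± 0.16), a membrane-bound factor of the secretory pathway, and for ZBTB16 (1.40 ± 0.12), ELK4 (1.37 ± 0.17) and GRHL2 (0.78 ± 0.09). IRX5, a homeobox factor, and SOX4 fell, by 1.01 and 0.51. The ETS genes ERG and ETV1 stood at -0.09 and 0.23 and were not called, but the dimmer probe sets of ETV1 gave 0.40 to 0.62. ATF3 (0.73 ± 0.18) lost its call without androgen array 1, 2 or 3 (adjusted p up to 0.0985), and CEBPB (0.29 ± 0.08) lost its call without vehicle array 1, 2 or 3 or androgen array 1, 2 or 3 (adjusted p up to 0.141) and with the replicate block (adjusted p = 0.0894). The secretory factor XBP1 rose by 0.48 ± 0.07 and CEBPD by 0.46 ± 0.07.

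Among 26 steroid receptor coregulator genes 1 rose and 4 fell, beside 7.17% and 5.84% of all genes. The list's median was -0.10, beside -0.04 for all genes. PIAS1, a SUMO ligase that binds the receptor, rose from 489, 439.5 and 423 to 925, 1016 and 914. Of the p160 coactivator genes, NCOA3 was not analysed here and the others fell, NCOA2 from 1145, 1127 and 1181 to 748, 647 and 628 and NCOA1 from 1007, 986 and 1123 to 808, 710.0 and 709. The corepressor gene NRIP1 (-0.46 ± 0.10) and the acetyltransferase gene CREBBP (-0.30 ± 0.08) were also lower, but NRIP1 lost its call without vehicle array 1 or androgen array 2 (adjusted p up to 0.079) and CREBBP without vehicle array 1 or 3 or androgen array 1, 2 or 3 (adjusted p up to 0.142) and with the replicate block (adjusted p = 0.087). The count of falls was 2 without vehicle array 1 or androgen array 2.

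Genes of the UGT2B family, whose products conjugate androgens to glucuronic acid, went in opposite directions. UGT2B17 fell from 5011, 5558 and 4877 to 482, 470.3 and 531 and UGT2B15 from 327, 303 and 309 to 46.4, 48.9 and 52.5, while UGT2B28 rose from 229.5, 186 and 155 to 546, 680.3 and 602. The genes are close copies of each other, and the probe set of UGT2B15 is of a kind that can bind related transcripts, so that its values may hold signal of its relatives. UGDH, which makes the UDP-glucuronic acid they use, rose (0.71 ± 0.09), as did HSD17B11, a 17-beta-hydroxysteroid dehydrogenase (1.32 ± 0.10).

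Of 31 steroid metabolism genes 4 rose and 4 fell, beside 7.17% and 5.84% of all genes, with a median of -0.01. The near-identical reductase genes AKR1C1 (-0.74 ± 0.19) and AKR1C2 (-0.72 ± 0.17) were lower; AKR1C1 lost its call without vehicle array 1 or 2 or androgen array 1, 2 or 3 (adjusted p up to 0.119) and AKR1C2 without vehicle array 2 or androgen array 1 or 3 (adjusted p up to 0.0793), which left 2 falls. The sulphatase gene STS (0.52 ± 0.14) lost its call without vehicle array 1, 2 or 3 or androgen array 1 or 3 (adjusted p up to 0.162) and with the replicate block (adjusted p = 0.0817). The 5-alpha-reductase genes SRD5A1 and SRD5A2 stood at 0.05 and -0.01, uncalled, and the dimmer probe sets of SRD5A1 gave 0.10 and 0.61.

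In the IGF axis, which carries growth signals, the receptor IGF1R rose from 97.6, 82.4 and 82.6 to 537, 462 and 484 and the adaptor IRS2 from 154, 172 and 93.2 to 550.1, 600.4 and 465, while GRB10 fell as given above. Vehicle array 3 was the lowest array for IRS2. IRS1 stood at 0.59 ± 0.27 and was not called. The ligand IGF1 (0.33 ± 0.09) and IGFBP2 (-0.38 ± 0.10) were called with all arrays only by a small margin. IGF1 lost its call without vehicle array 1 or 2 or androgen array 1, 2 or 3 (adjusted p up to 0.144) and with the replicate block (adjusted p = 0.0576), and IGFBP2 lost its own without vehicle array 1 or 2 or androgen array 1, 2 or 3 (adjusted p up to 0.141) and with the replicate block (adjusted p = 0.0615). The list held 3 rises and 2 falls among 15, with a median of -0.10.

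Of 26 genes around CAMKK2, AMPK, SGK1 and PI3K, 8 rose and 3 fell. INPP4B, a phosphatase that acts on a PI3K product, rose from 60.0, 41.7 and 72.0 to 192, 232 and 256. CAMKK2, an activating kinase of AMPK, rose from 220.0, 241 and 152 to 438, 493 and 503. The PI3K regulatory subunit PIK3R3 fell from 1792, 1825 and 1684 to 708, 680.3 and 696 and PIK3R1 by 0.42 ± 0.08. The AMPK catalytic subunits PRKAA1 and PRKAA2 stood at -0.14 and -0.08, uncalled. The tuberous sclerosis genes parted, TSC2 at 0.90 ± 0.13 and TSC1 at -0.40 ± 0.08, both called. Without vehicle array 3 this list held 5 falls, and MTOR (0.41 ± 0.10) lost its call without vehicle array 1 or androgen array 2 or 3 (adjusted p up to 0.103).

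Receptor and feedback genes of the ErbB list showed 3 rises and 2 falls among 23, beside 7.17% and 5.84% of all genes. LRIG1, which lowers ErbB receptors at the membrane, rose from 229.7, 309 and 204 to 1057, 1065 and 1129, while ERBB2 itself fell from 562, 536 and 634 to 322, 303 and 265 and the ligand gene TGFA by 0.91 ± 0.16. The phosphatase gene DUSP2 and the ubiquitin ligase gene NEDD4L rose (1.21 ± 0.19 and 0.64 ± 0.10). EGFR stood at 0.62 ± 0.18 and was not called.

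In the TGF-beta and BMP list 4 of 32 rose and 2 fell, against 7.17% and 5.84% of all genes. PMEPA1, a membrane protein that dampens TGF-beta signalling, rose from 167, 189 and 190.1 to 1067, 1047 and 891, and the receptor gene BMPR1B rose by 1.07 ± 0.13. ID2 rose (0.92 ± 0.09) while its relative ID3 fell (-0.55 ± 0.10), and SMAD3 fell (-0.87 ± 0.10). SMAD4 (0.50 ± 0.13) lost its call without vehicle array 2 or 3 or androgen array 1 or 3 (adjusted p up to 0.13) and with the replicate block (adjusted p = 0.0729). Without vehicle array 3 the list held 5 falls.

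Of 37 Wnt and Notch genes 3 rose and 2 fell, shares near the 7.17% and 5.84% of all genes. The Frizzled genes, which encode Wnt receptors, split: FZD5 rose from 373, 356 and 221 to 1558, 1599 and 1600 and FZD3 fell from 622, 623 and 492 to 99.0, 101 and 109.7. FZD1 was higher (0.53 ± 0.11) but lost its call without vehicle array 1 or androgen array 1 or 3 (adjusted p up to 0.0623). The Notch target gene HES1 rose (1.06 ± 0.16), and NOTCH3 (-0.72 ± 0.15) lost its call without androgen array 3 (adjusted p up to 0.0526). The falls of this list numbered 1 without androgen array 3, and 5 without vehicle array 3.

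**Figure D3:**
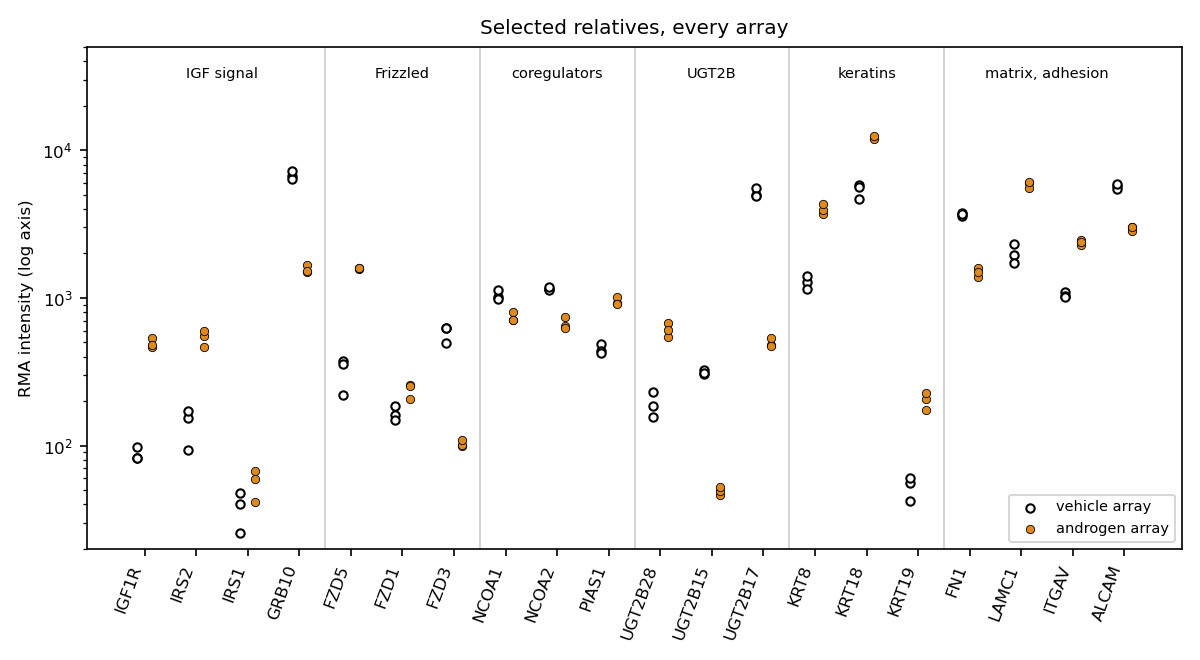
Intensity (log axis) on each vehicle array (open circles) and androgen array (filled circles) for 20 genes in 6 families, chosen after their values had been seen to show relatives that moved apart. IGF1R, IRS2, FZD5, UGT2B28, LAMC1 and ITGAV are higher on every androgen array, and GRB10, FZD3, UGT2B15, UGT2B17, FN1 and ALCAM lower; the arrays of IRS1 overlap.

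Among 21 genes of prostaglandin handling 3 rose and 1 fell, where 7.17% and 5.84% of all genes did. HPGD, which inactivates prostaglandins, rose from 47.7, 39.6 and 44.1 to 542, 507 and 431, and the receptor gene PTGER4 from 49.3, 49.0 and 63.5 to 519.7, 487 and 486. The exporter gene ABCC4 rose from 1893, 1921 and 2072 to 6052, 5798 and 6300.5, and the phospholipase gene PLA2G2A fell from 1927, 2197 and 1758 to 518, 527 and 492. The cyclooxygenase genes PTGS1 and PTGS2 stood at -0.01 and -0.12, and the list's median was -0.09. Leaving out vehicle array 3 gave 2 falls.

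The broadest shift of any list was in Golgi and vesicle traffic, where 29 of 47 genes rose and none fell, with a median of 0.51, the highest of the 33 lists, beside -0.04 and 7.17% rising among all genes. Because the lists were chosen with earlier results of these data known, this rank among them is no test. Of the 47 log2 changes, 44 were above 0. These genes carry cargo from the endoplasmic reticulum through the Golgi to the cell surface. Without 1 array at a time and with the replicate block, a term for the replicate number in the fit, this count ranged from 26 to 30.

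At the exit from the endoplasmic reticulum, 8 of 10 measured COPII coat genes rose. SEC24D went from 92.8, 89.0 and 113 to 364, 408 and 379, and SEC24B, SEC24A and SEC24C rose by 0.93 ± 0.09, 0.71 ± 0.08 and 0.48 ± 0.09. SEC23B, SEC13, SAR1A and SAR1B rose by 0.51 to 0.62, while SEC23A stood at -0.19 ± 0.10 and SEC31A at 0.19 ± 0.09, uncalled. The cargo receptor genes LMAN1 and MCFD2, whose products work as a complex on coagulation factors, rose by 1.09 ± 0.14 and 0.87 ± 0.09.

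Of 7 genes of the COPI coat, which returns material to the endoplasmic reticulum, 4 rose. COPG1, COPB2 and ARCN1 rose by 0.77 ± 0.11, 0.42 ± 0.07 and 0.39 ± 0.07, while COPA, COPB1 and COPE stood at 0.11, 0.28 and 0.28, uncalled. COPZ1 (0.28 ± 0.07) lost its call without vehicle array 1, 2 or 3 or androgen array 2 or 3 (adjusted p up to 0.137) and with the replicate block (adjusted p = 0.0704). RAB1A (0.27 ± 0.07) lost its call without vehicle array 1 or 2 or androgen array 1, 2 or 3 (adjusted p up to 0.0989) and with the replicate block (adjusted p = 0.0748), and TMED2 (0.50 ± 0.12) without androgen array 1, 2 or 3 (adjusted p up to 0.105) and with the replicate block (adjusted p = 0.0571).

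Adaptors and structural proteins of the Golgi rose as well. The p24 cargo receptor genes TMED9, TMED7 and TMED3 rose by 0.91 ± 0.09, 0.58 ± 0.11 and 0.51 ± 0.10, and KDELR3, which retrieves escaped resident proteins, by 0.86 ± 0.12, while KDELR1 stood at 0.14 ± 0.10, uncalled. The golgins GOLGA4 and GOLGA2 rose by 0.96 ± 0.10 and 0.60 ± 0.11, ERGIC2 by 0.98 ± 0.09, GOLPH3 by 0.65 ± 0.13, the SNARE gene BET1 by 0.72 ± 0.09 and ARFGAP3 by 0.55 ± 0.08. None of these 10 genes lost its call when any 1 array was left out. GOLM1, a Golgi membrane protein, stood at 0.11 ± 0.07 and was not called.

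Small GTPases of secretion and recycling had some of the largest changes of the list. RAB27A, a small GTPase of granule docking, went from 167, 139 and 149 to 822, 867 and 836. RAB3B went from 156, 167 and 144 to 525, 616 and 488 and RAB4A, of recycling endosomes, from 1262, 1349 and 1044 to 2928, 3281 and 3064. RAB3D was higher as well but spread more widely, at 1.01 ± 0.34 (adjusted p = 0.0964). SYTL2, whose product binds RAB27A, stood at -0.67 ± 0.33, uncalled. MYRIP, another partner of RAB27A that was not on the list, fell from 1434, 1140.1 and 1179.7 to 198, 181 and 162.

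**Figure D4:**
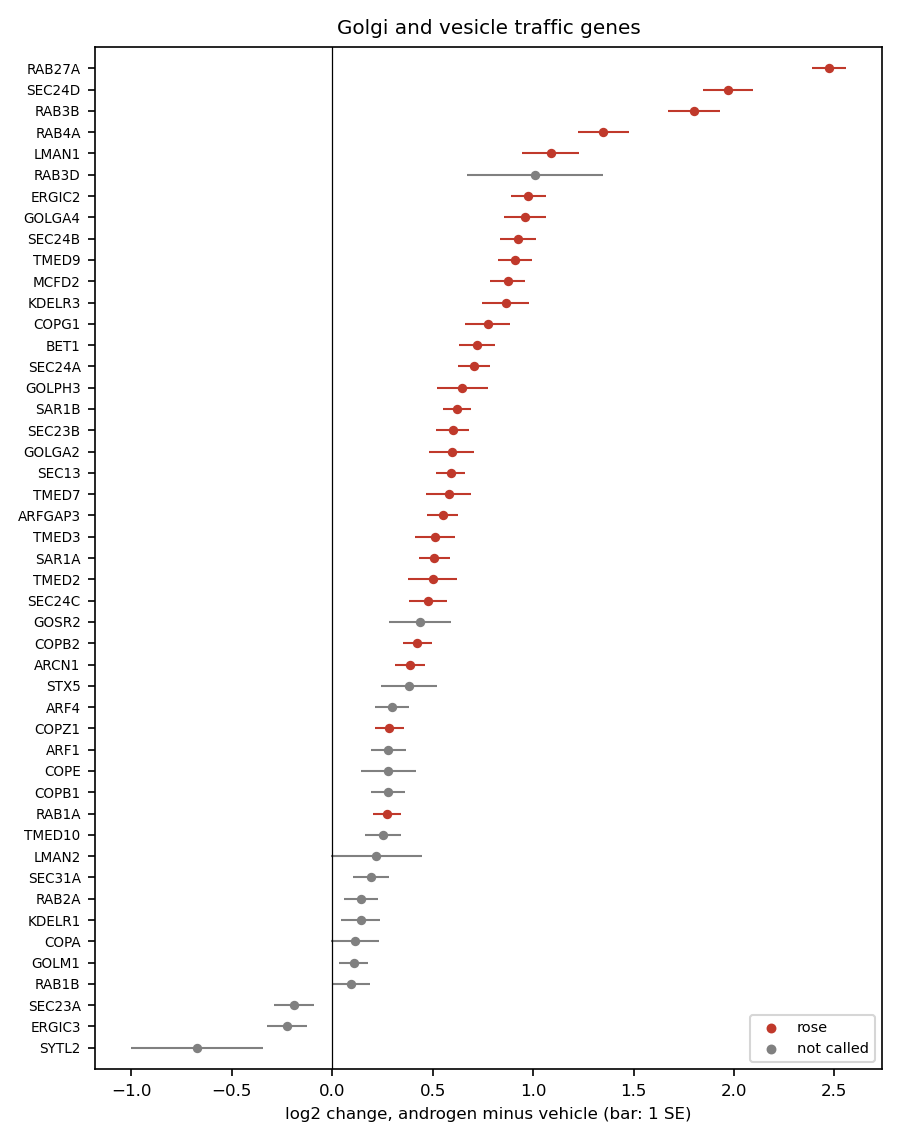
Log2 change, androgen minus vehicle, of the 47 measured Golgi and vesicle traffic genes, with bars of 1 standard error; red points rose and grey points were not called. The 29 called genes run from RAB1A, at 0.27, to RAB27A, at 2.48, and 3 genes lie below 0.

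Of the enzymes that supply and attach sugars, 8 of 34 rose and 3 fell, with a median of 0.12. UAP1, which makes UDP-GlcNAc, rose from 3747, 3490.2 and 3465 to 8739.8, 8014 and 7969, and GFPT1, at the entry of that route, rose by 0.77 ± 0.07. NANS and CMAS, which make and activate sialic acid, rose by 1.24 ± 0.14 and 0.77 ± 0.10, and the galactosyltransferase gene B4GALT1 by 1.16 ± 0.21. FUT8, which adds core fucose, fell from 230.0, 195 and 249 to 77.5, 77.7 and 81.1. GALNT3, which starts O-glycans, fell from 1370.1, 1417 and 1492 to 548, 519 and 590.4, whereas its relatives GALNT7 and GALNT2 rose (0.58 ± 0.08 and 0.53 ± 0.09). The sialyltransferase gene ST3GAL1 fell by 1.21 ± 0.10. B3GNT2 (0.43 ± 0.11) lost its call without vehicle array 1 or androgen array 1, 2 or 3 (adjusted p up to 0.129) and with the replicate block (adjusted p = 0.0569).

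Lipid uptake and storage genes rose in 8 of 27 cases and fell in 2, with a median of 0.09. SCAP, which escorts the SREBP factors to the Golgi, was at 377, 357 and 198 with vehicle and 868, 809.8 and 699 with androgen, with vehicle array 3 the lowest. INSIG2, which holds SCAP back, fell from 858, 864 and 793 to 283, 239 and 279. The lipoprotein receptor gene VLDLR rose by 1.42 ± 0.11, the cholesterol esterification gene SOAT1 by 1.31 ± 0.13 and the lysosomal cholesterol export gene NPC1 by 0.94 ± 0.12. SREBF2 stood at 0.72 ± 0.27 (adjusted p = 0.132).

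Fatty acid oxidation genes changed in both directions. AMACR, which acts on branched chains, rose from 1091, 999 and 955 to 2088, 2089 and 2225, the isomerase gene ECI2 from 2429, 2701 and 2073 to 5228, 5433 and 5369, and the peroxisomal oxidase gene ACOX3 by 1.42 ± 0.27. The carnitine carrier gene SLC25A20 and the octanoyltransferase gene CROT rose by 1.34 ± 0.18 and 0.94 ± 0.10, and ACADM, of medium chains, by 0.50 ± 0.09. CRAT, PHYH, ETFB and HADHB fell, by 1.10, 0.60, 0.63 and 0.42. CPT1A, which controls entry of long chains into mitochondria, stood at 0.08 ± 0.11, uncalled, and its dimmer probe sets gave 0.52, 0.77 and 0.18. In all, 8 of 27 rose and 4 fell, and 7 fell without vehicle array 3. ACAA1 (0.83 ± 0.18) lost its call without androgen array 2 (adjusted p up to 0.0608), and ECI1 (0.54 ± 0.12) without vehicle array 1 or androgen array 1, 2 or 3 (adjusted p up to 0.0795).

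In glycolysis 4 of 23 rose and 2 fell, with a median of -0.05: the glucose transporter gene SLC2A3 rose by 0.66 ± 0.11, HK1 by 0.74 ± 0.09 and PFKFB2, whose product makes an activator of phosphofructokinase, by 1.21 ± 0.13, while the phosphofructokinase gene PFKM fell from 2329, 2319 and 2662 to 1449.5, 1354 and 1479.8. HK2 rose by 1.25 ± 0.15 on its brighter probe set, but a second and dimmer one gave 0.01. The dimmer probe set of PFKFB2 gave 0.14. GAPDH and LDHA stood at -0.05 and 0.21, uncalled. Without ENO2, which lost its call as given above, PFKM was the single fall of this list.

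Of 23 genes listed with the citrate cycle, transaminase genes among them, 6 rose. This count was 2 without vehicle array 2 or androgen array 1, and 3 without androgen array 2 or 3. IDH1, a cytosolic isocitrate dehydrogenase, rose from 5529.8, 6085 and 4846 to 9389.5, 8530.1 and 9659 and the transaminase gene GOT1 by 0.48 ± 0.09, and both kept their call without any 1 array. DLST (0.69 ± 0.18) lost its call without vehicle array 2 or androgen array 1 or 2 (adjusted p up to 0.126). OGDH (0.49 ± 0.12) lost its call without vehicle array 1 or 2 or androgen array 1 or 3 (adjusted p up to 0.0912). IDH3A (0.39 ± 0.10) and GOT2 (0.31 ± 0.08) lost theirs, IDH3A without vehicle array 2 or 3 or androgen array 1, 2 or 3 (adjusted p up to 0.113) and with the replicate block (adjusted p = 0.0594) and GOT2 without vehicle array 1 or 2 or androgen array 1, 2 or 3 (adjusted p up to 0.11).

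Some housekeeping lists held few calls. All 36 cytosolic ribosomal protein genes lay between -0.14 and 0.07 and none was called. Of 32 genes of the respiratory chain and ATP synthase, NDUFV1 alone was called (-0.35 ± 0.10), and it lost its call without vehicle array 1, 2 or 3 or androgen array 1, 2 or 3 (adjusted p up to 0.162) and with the replicate block (adjusted p = 0.0772). In ribosome assembly the median was higher, at 0.19, with 19 of 24 above 0, but a single gene, NOP16, was called (0.62 ± 0.15), and it lost its call without androgen array 1, 2 or 3 (adjusted p up to 0.0808). Among 18 tRNA synthetase genes TARS1 alone rose (0.46 ± 0.08). In the fit that left out vehicle array 3, 1 gene fell in each of the ribosome assembly, tRNA synthetase and citrate cycle lists, where none had.

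Amino acid and peptide transporters rose in 6 of 19 cases. The peptide transporter gene SLC15A2 rose from 46.1, 54.1 and 75.6 to 664, 706 and 650.0, and SLC43A1, a carrier of branched amino acids first cloned from prostate cancer, from 105, 132 and 83.5 to 243, 246 and 228. SLC38A1 and the cystine carrier gene SLC7A11 rose by 0.59 ± 0.11 and 0.50 ± 0.10. SLC1A5 (0.71 ± 0.16) lost its call without vehicle array 2 or androgen array 2 or 3 (adjusted p up to 0.0697). SLC7A5 (-0.45 ± 0.11) lost its call without vehicle array 1 or 2 or androgen array 2 or 3 (adjusted p up to 0.0875), and SLC7A1 (0.25 ± 0.07) without vehicle array 1 or 2 or androgen array 1, 2 or 3 (adjusted p up to 0.156) and with the replicate block (adjusted p = 0.109). This list had 3 falls in place of 1 without vehicle array 3.

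Zinc carriers are of interest because the prostate stores zinc. Their list gave 3 rises and 3 falls among 21 metal genes, beside 7.17% and 5.84% of all genes. The exporter gene SLC30A1 rose by 0.84 ± 0.07 and the importer gene SLC39A8 fell from 2268, 2158 and 2366 to 1262, 1111 and 1122, and SLC30A4 fell by 0.47 ± 0.09. SLC39A7 (1.58 ± 0.34) lost its call without androgen array 1 or 2 (adjusted p up to 0.0685). SLC39A6 (0.31 ± 0.08) and the metallothionein gene MT2A (-0.42 ± 0.10) lost theirs, SLC39A6 without vehicle array 1 or 2 or androgen array 1, 2 or 3 (adjusted p up to 0.133) and MT2A without vehicle array 1 or 2 or androgen array 1 or 3 (adjusted p up to 0.0969) and with the replicate block (adjusted p = 0.0552).

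Among structural genes, 12 of 49 cytoskeletal genes fell and 7 rose, with a median of -0.12. The microtubule partners MID1 and MAPRE2 had the lowest values of the list, MID1 from 502, 488 and 461 to 63.8, 65.0 and 64.4 and MAPRE2 from 1409.6, 1448 and 1305 to 203, 221 and 144. The actin and myosin regulator gene CALD1 fell from 9065, 9103 and 10495 to 5654, 5183 and 5713, MYLK by 0.94 ± 0.12 and the tubulin gene TUBA1A by 0.82 ± 0.10. MYO5A, a vesicle motor, and SEPTIN11 fell by 0.62 and 0.59. TPM1, a tropomyosin gene, rose by 0.74 ± 0.07, and MAP7 and EZR rose by 0.55 ± 0.10 and 0.46 ± 0.08. The count of rises was 3 without androgen array 1, and 4 without vehicle array 1 or 2 or androgen array 2 or 3.

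In adhesion and matrix 8 of 48 fell and 5 rose, beside 5.84% and 7.17% of all genes. The laminin gene LAMC1 rose from 1939, 1727 and 2331 to 6001, 5507 and 6048, the integrin gene ITGAV from 1102, 1038 and 1011 to 2466, 2269 and 2388 and the proteoglycan gene SPOCK1 from 54.5, 38.5 and 69.6 to 236, 235 and 246. FN1 and the adhesion gene ALCAM fell, ALCAM from 5755, 5445 and 5913 to 3042, 2857 and 3036, as did COL5A2 (-1.50 ± 0.30), TIMP2 (-0.70 ± 0.12) and NCAM2 (-0.45 ± 0.08). The cadherin genes CDH1 and CDH2 stood at -0.03 and -0.05, uncalled, while CDH3 was lower (-0.77 ± 0.20) and lost its call without vehicle array 1 or 2 or androgen array 1 or 3 (adjusted p up to 0.125). The count of falls was 5 without vehicle array 1 or androgen array 3.

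Ion transport gave 3 rises and 3 falls among 32, not far from the 7.17% and 5.84% of all genes. The plasma membrane calcium pump gene ATP2B1 fell from 1566, 1543 and 1454 to 422, 486 and 437, and ATP1B1, of the sodium pump, fell by 0.45 ± 0.08. The calcium-activated potassium channel gene KCNMA1 rose from 556, 526 and 524 to 1818, 1969 and 1286 and the bicarbonate carrier gene SLC4A4 by 0.80 ± 0.12. TRPM4 (0.50 ± 0.12) lost its call without vehicle array 1 or androgen array 1 or 2 (adjusted p up to 0.092), and CLCN3 (-0.36 ± 0.10) without vehicle array 1, 2 or 3 or androgen array 1, 2 or 3 (adjusted p up to 0.153) and with the replicate block (adjusted p = 0.0718).

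Of 25 genes of the G1 phase of the cell cycle 5 fell and 1 rose, with a median of -0.13. CDC25A, a phosphatase that activates cyclin-dependent kinases, rose by 0.96 ± 0.15, but its dimmer probe set gave 0.13. CCNG2, a cyclin tied to arrest, fell from 1236, 1127 and 1267 to 557, 496 and 489 and RBL2, a retinoblastoma relative, by 0.55 ± 0.08. CCNE1, CCNE2 and CDKN2A were also lower, by 0.39, 0.43 and 0.38. CCNE1 lost its call without androgen array 2 (adjusted p up to 0.0516), CCNE2 without vehicle array 1 or 2 or androgen array 2 or 3 (adjusted p up to 0.0693) and CDKN2A without androgen array 1 or 2 (adjusted p up to 0.067). Leaving out androgen array 2 gave 2 falls. CCND1 stood at -0.13 ± 0.10, uncalled.

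Of 28 apoptosis genes 3 rose and 1 fell, beside 7.17% and 5.84% of all genes. The death receptor gene TNFRSF10B rose from 1519.6, 1582 and 1524 to 3194, 2972 and 2970.4 and the survival gene BCL2L1 by 0.51 ± 0.08, while the pro-apoptotic gene BID fell from 469, 483 and 556 to 309, 261 and 224. CFLAR (0.36 ± 0.10) lost its call without vehicle array 1 or 2 or androgen array 1, 2 or 3 (adjusted p up to 0.161) and with the replicate block (adjusted p = 0.095). Among 21 immediate early and MYC family genes, MXI1, an antagonist of MYC, fell from 1832, 1695 and 2167 to 1032, 825 and 1026, and ATF3 was the single rise. MYC stood at -0.27 ± 0.13, uncalled, although its vehicle and androgen arrays did not overlap. Leaving out vehicle array 3 gave 2 falls in this list.

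Interferon and antigen presentation genes showed 1 rise and 2 falls among 26, beside 7.17% and 5.84% of all genes, with a median of -0.13. B2M, the light chain of class I molecules, rose by 0.47 ± 0.08, and TAPBP, which loads them, fell by 0.71 ± 0.10. MX1 (-0.40 ± 0.10) lost its call without vehicle array 1, 2 or 3 or androgen array 1, 2 or 3 (adjusted p up to 0.137) and with the replicate block (adjusted p = 0.0778). The list's falls numbered 1 without vehicle array 1 or 2 or androgen array 1, 2 or 3 and with the replicate block, and 4 without vehicle array 3.

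**Figure D5:**
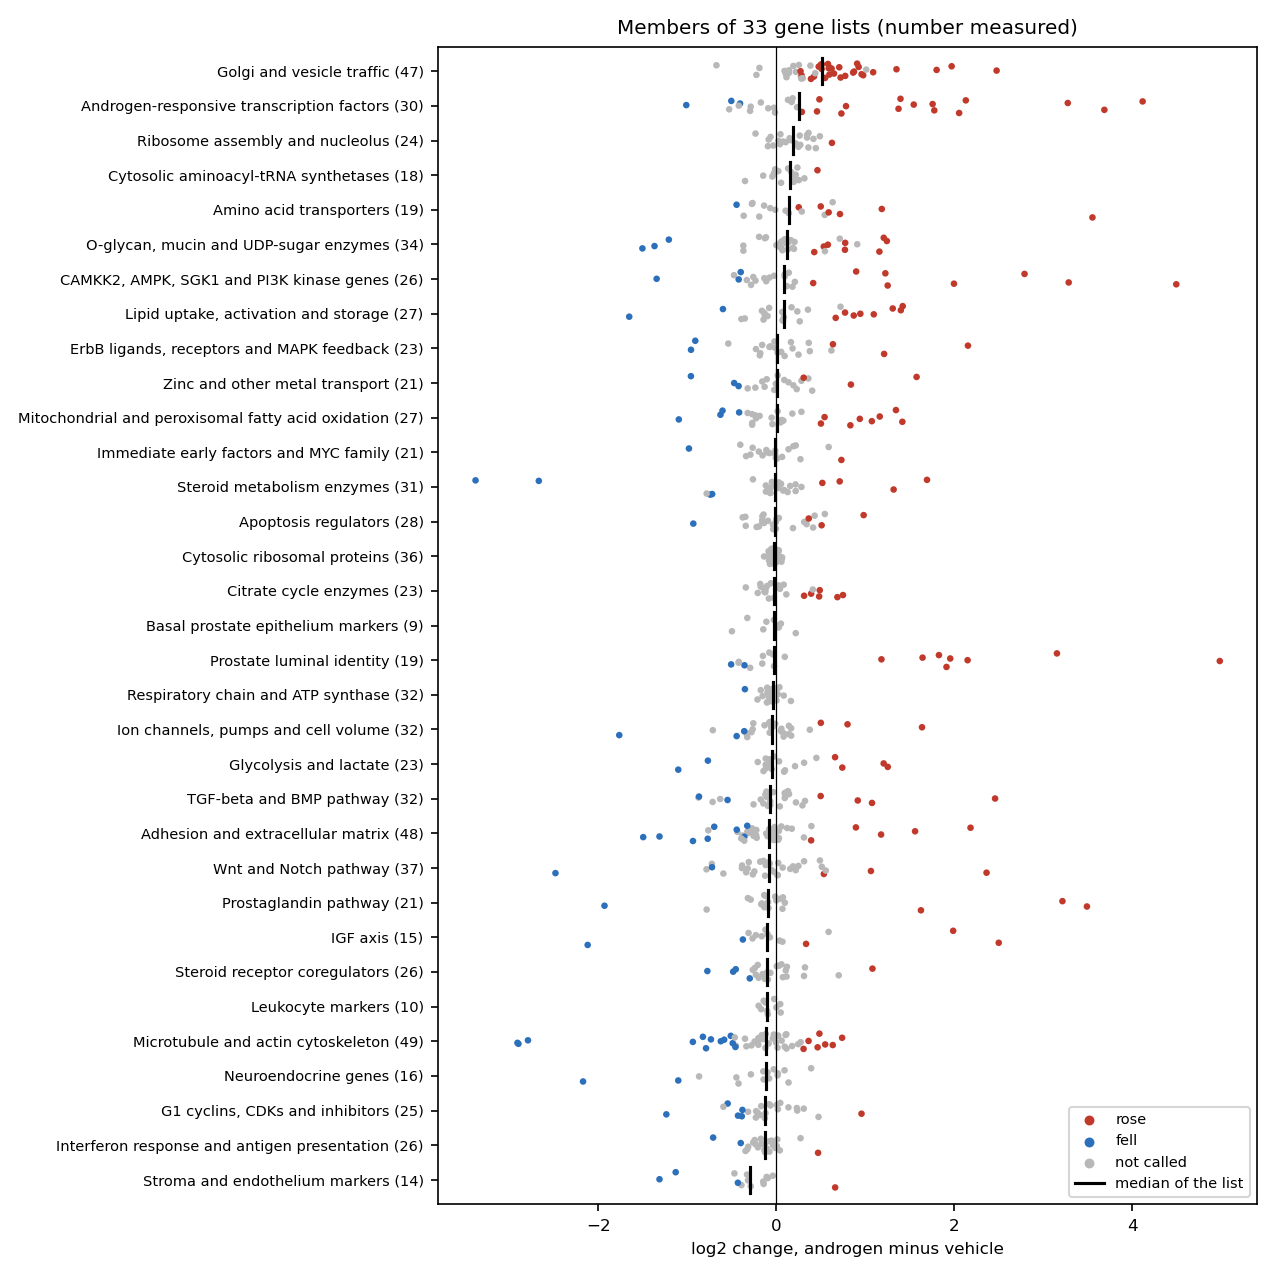
Log2 change, androgen minus vehicle, of every measured member of the 33 gene lists, ordered by the list median (black bar), with the number measured in brackets; red members rose, blue members fell and grey members were not called. Golgi and vesicle traffic has the highest median, at 0.51, the markers of stroma and endothelium the lowest, at -0.30, and the ribosomal proteins the narrowest range, from -0.14 to 0.07.

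Of the stroma and endothelium markers behind that lowest median, FN1 and VWF fell, VWF from 125, 108 and 106 to 55.9, 44.6 and 54.5, and COL3A1 was lower (-0.43 ± 0.10) but lost its call without vehicle array 1 or androgen array 2 or 3 (adjusted p up to 0.078). The actin gene ACTA2 was higher (0.66 ± 0.15) and lost its call without vehicle array 1 or androgen array 1 (adjusted p up to 0.069). The mesenchymal gene VIM stood at -0.47 ± 0.28, uncalled, and the endothelial genes PECAM1 and CDH5 at -0.33 and -0.29. No basal epithelium marker was called, and 1 was called downwards without vehicle array 3.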

How the data were processed

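Expression was measured on 9 arrays. The deposited values are linear intensities per probe set. RMA was the authors' method per the submitters' processing notes, which give no version. RMA is meant to bring the arrays to a common distribution, which can shift genes where many move one way. The deposited values did not fully share one. Their upper quartile was 332.5 on vehicle array 3 and 377.4 to 398.2 on the other vehicle and androgen arrays. Groups were taken from the titles. From the deposited intensities, log2 was taken with no added constant and no filter on low values. Among the 22215 probe sets, the annotation pairs 19724 with a single gene, 568 with several and 1923 with none. Gene symbols were updated through the reference table for 19707. For each of 12165 genes the probe set of highest mean level was kept, and 4505 genes had more than 1 to choose from.

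A linear model of the 3 groups was fitted to the 9 arrays in R 4.3.3 by limma 3.58.1, with plain eBayes on 6 residual and 2.70 prior degrees of freedom. The contrast was androgen minus vehicle, with Benjamini-Hochberg adjustment over all genes and a threshold of 0.05. "Rose" and "fell" mean past that threshold, and values after ± are standard errors of log2 changes unless named as SD. The median standard error was 0.129, and the number of arrays limits the precision. The fit was tested on simulated data. Folds were computed from the log2 changes.

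The members and the 33 gene lists were chosen with earlier results of these data known. Named genes followed a rule: the 20 largest rises and falls among called genes without overlap, up to 4 called and 2 uncalled members per list, every member of a list direction with 5 or fewer calls, and KLK2, KLK3, TMPRSS2 and FKBP5, with fewer printed where they repeat. Other uncalled members named, and the genes drawn as relatives, were chosen after their values were seen. Listed genes outside the 12165 were not analysed here. Replicate numbers come from the titles, 1 to 3 in every group. Deviations from the group means of same-numbered vehicle and androgen arrays correlated at 0.40, 0.37 and 0.63 over genes. Vehicle array 1 and androgen array 2 correlated at 0.30, and vehicle array 2 and androgen array 1 at 0.41. Whether arrays 1 and 2 pair by number is therefore not settled. Vehicle array 3 correlated at -0.47 and -0.40 with androgen arrays 1 and 2. Androgen array 3 correlated at -0.51 and -0.57 with vehicle arrays 1 and 2. No fit left out both arrays numbered 3. The main fit did not pair the arrays, and only the fits with the replicate block used the numbers. Promoter sequences, matched by gene ID, were found for 9709 of the 12165 genes. Alternatives were the replicate block, the 2 groups alone, both together, median centring, quantile normalization, leaving out genes of low intensity, averaging probe sets, an added constant of 16, eBayes with trend and robust, array weights, and each array left out in turn.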

Additional observations from a re-analysis of the deposited data

How the results depend on the processing

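None of the 244 called genes followed through the alternatives changed direction in 4612 recomputed values. For most settings this was fixed in advance, because the groups did not overlap at any called gene. Only median centring, quantile normalization and averaging of probe sets could have turned a sign. In 4214 of the 4612 values the call was kept and in 398 it was lost. Of the 244 genes, 183 were called in every setting that tested them. With the replicate block 1406 genes were called (789 up, 617 down), of which 1349 were also called without it, and 368 of them changed at least 2-fold. Calls of named genes that were lost with it stand beside those genes, and it ended no call of another named gene. Array weights, which gave vehicle array 3 a weight of 0.165, raised the number of calls to 3254, with 1417 rises and 1837 falls; the cause was not tested. Leaving out 1 of the 9 arrays at a time gave 1078 to 1836 calls, with 615 to 864 rises, 433 to 972 falls and 364 to 380 genes changed at least 2-fold. The fewest falls, 433, came without androgen array 2 and the most, 972, without vehicle array 3. Median centring gave 1647 calls, of which 1091 were rises and 556 falls, and quantile normalization gave 905 rises and 934 falls. Averaging the probe sets of a gene gave 1497 calls and turned the sign of 3 of the 1583 called genes. Among the 3042 dimmest genes 26 were called, and the values used here hold no background signal against which their levels could be set. The time of androgen treatment, 6 h or 24 h, was not settled by the labels.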
